A study of Xenopus tropicalis with 52 samples.

Results

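Forkhead box (Fox) genes encode transcription factors (TFs) that bind DNA through a winged-helix domain. Of 38 genes in the count files whose symbol begins with fox, a letter and a digit, 32 are described here, out of 28148 genes counted on exons. The rule leaves out foxi4.2, foxi1, foxd3, foxh1, foxh1.2 and foxa4. FoxA proteins open chromatin in the endoderm and the axial mesoderm, FoxC and FoxF proteins act in the paraxial and lateral mesoderm, and FoxJ1 switches on the genes of motile cilia. FoxO, FoxM1, FoxK, FoxN and FoxP proteins are used by many cell types, in metabolism, cell division and repression. In *Xenopus* the family also marks the germ layers of the early embryo: foxd4l1 and foxb1 in the neural plate, foxi genes in the ectoderm.

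All embryos were wild-type *X. tropicalis*. The study asked how canonical Wnt, Nodal and BMP signals, and the T-box TFs that act after them, shape the activation of the zygotic genome. Poly(A) RNA of whole embryos was sequenced at stage 9+ (late blastula) in 8 groups of 3 libraries, each from 10 to 15 embryos. Wnt loss of function (LOF) was made by injecting 5 ng of an antisense morpholino (MO) that blocks the translation of β-catenin, the mediator of canonical Wnt signaling. Nodal LOF and BMP LOF were made by incubation from the 8-cell stage in 100 µM of SB431542, an inhibitor of Nodal receptors, and 10 µM of LDN193189, an inhibitor of BMP receptors. Some labels of replicates 2 and 3 give these compound names with a number that runs on by 1 or 2, and they were read as the same compounds. The other groups were Nodal/BMP, Wnt/BMP, Wnt/Nodal and Wnt/Nodal/BMP LOF, which combine these agents, and an uninjected control in DMSO. Every Wnt LOF is therefore compared with embryos that were not injected. In a second experiment, 4x zT LOF embryos had received 5 ng of MO against zygotic VegT, 5 ng against Eomes and 2.5 ng of each of 4 MOs against the Brachyury genes. The T-box MOs add up to 20 ng, and the labels give the control MO as 5 or 20 ng to match the dose of the LOF. The groups were compared at stages 10+, 11+ and 12+ (early, mid and late gastrula), with 4 libraries per group. In the third experiment, RNA made in 30 embryos after injection of 75 ng of 4-thiouridine (4sU) was selected at stage 8+ (the midblastula transition, MBT) and at stage 10+, with 1 enriched and 1 input library per stage. LOF here means these treatments, and no mutant line was used.

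The exon counts came to between 27710453 and 45443446 per library at stage 9+ and to between 26586752 and 60984753 in the T-box experiment. Levels below are CPM, the counts relative to the TMM-scaled total of their library, and 1 read was worth at most 0.0360 CPM at stage 9+ and 0.0418 CPM in the T-box experiment. The MOs against β-catenin and VegT block translation, so these transcripts do not check the labels, whereas the Eomes MO and 1 MO for each Brachyury gene block splicing. Intron reads of eomes, relative to the exon total, came to 103 to 131, 93.1 to 126 and 33.2 to 47.6 CPM at stages 10+, 11+ and 12+ in 4x zT LOF and to 12.9 to 17.1, 7.28 to 9.09 and 2.47 to 3.22 CPM with control MO. Intron means of the Brachyury gene t were 66.6, 136 and 197 CPM in 4x zT LOF against 19.7, 30.5 and 18.7 CPM. Those of the other Brachyury gene, t2, were lower, at 0.0921, 0.525 and 2.63 CPM against 0.623, 4.89 and 7.85 CPM. The exon means of t2 were also lower, at stage 12+ 15.2 against 123 CPM. The β-catenin transcript ctnnb1 lay between 2207 and 2388 CPM in the Wnt LOF libraries and between 2341 and 3030 CPM in the control. The Wnt target sia1, chosen for this check after its values were seen, was at 0, 0 and 0.0251 CPM in Wnt LOF and at 8.25, 7.34 and 17.7 CPM in the control. Libraries with the same replicate number resembled each other across groups, so values are given in the order of replicates 1, 2 and 3, and results with this number as a block are added where they change a call or a count of calls in an LOF. The tests measure a gene's share of the RNA of whole embryos, in which fewer cells of a type and less RNA per cell cannot be told apart.

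At stage 9+, 23 members had enough reads to be tested among 16001 genes. For the other 9, among them foxe1, foxf1, foxf2, foxl1, foxn4, foxo6, foxp2 and foxq1, no library held more than 19 reads. The test throughout is edgeR's quasi-likelihood test, with p-values adjusted over all tested genes by Benjamini-Hochberg and called at 0.1. The members that fell after signal loss were foxc1, a regulator of paraxial mesoderm, in all 4 treatments with the β-catenin MO, foxj1 in 2 of them and the neural plate gene foxd4l1.1 in 1. No member was called higher. Against control, Wnt LOF lowered 1 member (0.887% of all genes were called lower and 1.15% called in all). Wnt/BMP LOF lowered 1 (1.43% and 1.74%), Wnt/Nodal LOF 3 (2.1% and 2.39%) and Wnt/Nodal/BMP LOF 2 (2.62% and 2.99%). In Nodal, BMP and Nodal/BMP LOF the count was 0 by edgeR, against 0.681%, 0% and 0.575% of all genes. In these 3 comparisons 3, 3 and 4 of the 23 members had an unadjusted p under 0.05 by edgeR. Of the 16001 genes 548, 217 and 628 did. DESeq2 called 1, 0 and 1 members (1.42%, 0.0125% and 1.36% of all genes). In Wnt/Nodal/BMP LOF it called 5 (3.97%). With the replicate number as a block, 1, 2 and 5 members were called in Nodal, Nodal/BMP and Wnt/Nodal/BMP LOF, against 2.28%, 2.82% and 8.14% of all genes. On introns, where 12 members could be tested, the only call of the Wnt treatments was foxj1 in Wnt/Nodal/BMP LOF. Members without an intron test could not be called there, whatever their exon change. Of all genes 1.15%, 2.59%, 3.37% and 4.36% were called on introns for Wnt, Wnt/BMP, Wnt/Nodal and Wnt/Nodal/BMP LOF. The median log2 fold change of the 23 members lay between -0.21 and -0.06 over the 7 comparisons, and that of all genes between 0.00095 and 0.0058. All 7 comparisons share the 3 control libraries.

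**Figure D1:**
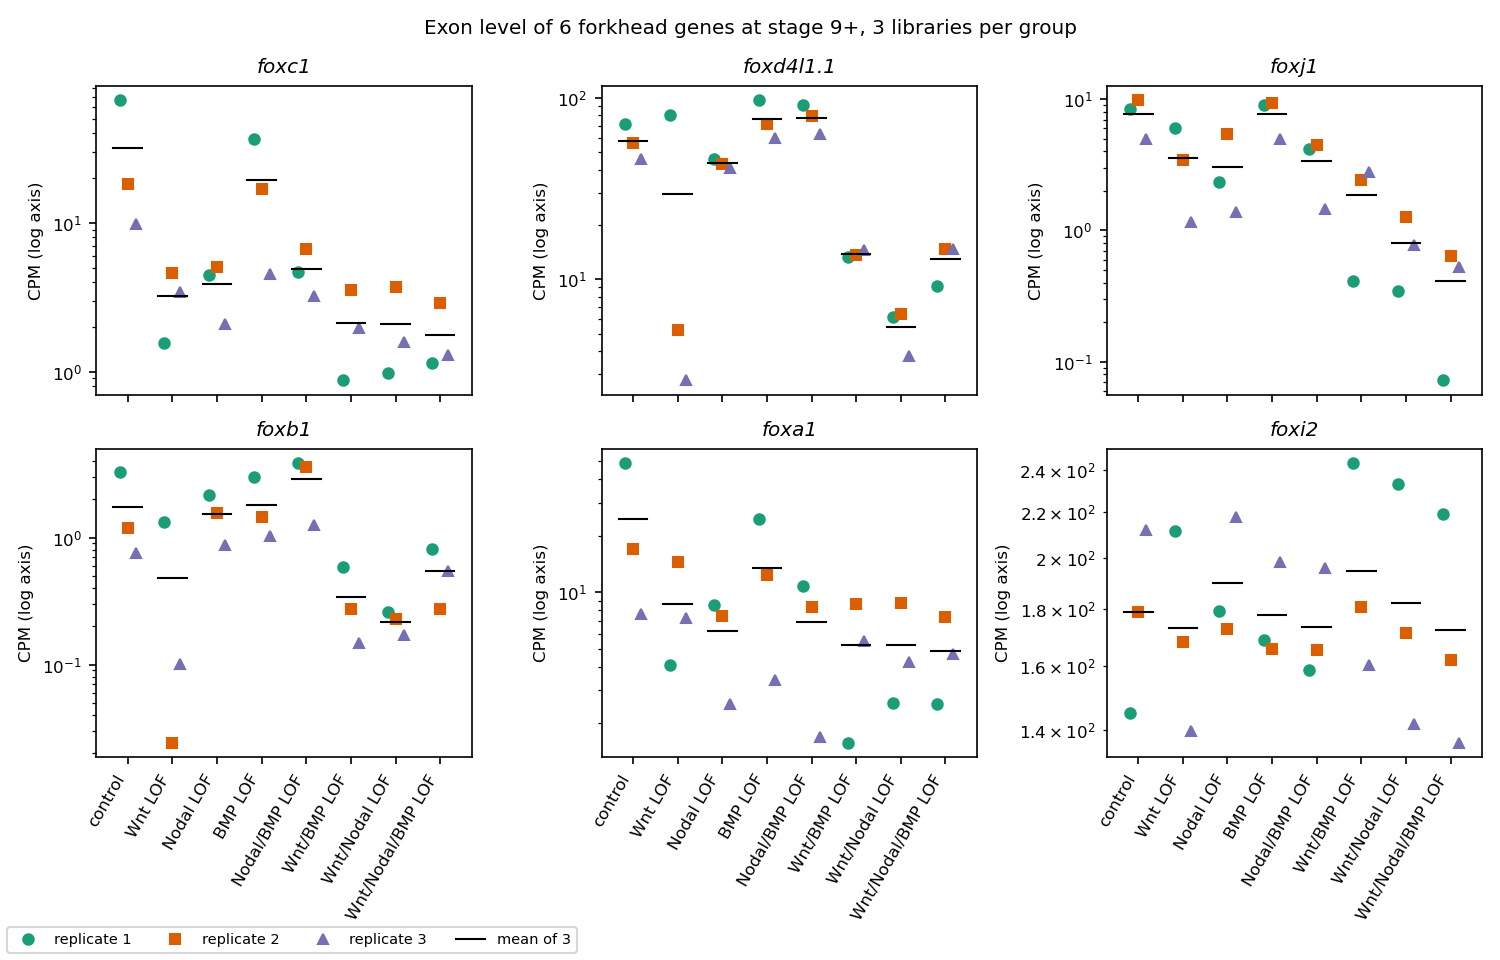
Exon level (CPM, log axis) of 6 forkhead genes in each of the 8 groups at stage 9+. Points are libraries, with shape and color by replicate number, and bars are means of 3; foxc1 lies below every control library in 6 of the 7 LOF groups, whereas foxi2 stays between 136 and 244 CPM throughout.

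Among the mesodermal members, foxc1 stood at 66.6, 18.2 and 9.87 CPM in the control. Its levels were 1.55, 4.62 and 3.42 CPM in Wnt LOF and 4.46, 5.06 and 2.09 CPM in Nodal LOF. In BMP LOF they were 36.7, 16.8 and 4.50 CPM. Only the BMP LOF libraries overlapped the control. When Wnt was lost together with another signal, foxc1 lay between 0.872 and 3.72 CPM in all 9 libraries. The log2 fold change against control was -3.30 (SE 0.81, adjusted p 0.0657) for Wnt LOF and -3.90 (SE 0.84, 0.0222) for Wnt/BMP LOF. It was -3.91 (SE 0.84, 0.0137) for Wnt/Nodal LOF and -4.15 (SE 0.84, 0.00803) for the triple LOF. In Nodal LOF it was -3.03 with an adjusted p of 0.139, and 0.0267 with the replicate block. In Nodal/BMP LOF it was -2.69 with an adjusted p of 0.267, and 0.0524 with the block. The control value rests on its replicate 1. All fits that left out a replicate were made without the block, so the pairing by replicate number was not used in them. Without replicate 1 of every group the adjusted p of the 4 called comparisons rose to 0.774, 0.265, 0.26 and 0.126 in the same order, without replicate 2 to 0.536, 0.325, 0.173 and 0.165, and without replicate 3 to 0.237, 0.0997, 0.0996 and 0.0715. The other mesodermal member tested, foxc2, was at 6.03, 2.56 and 1.73 CPM in the control and between 0.991 and 3.34 CPM in all LOF libraries.

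The summed mesoderm markers were lower too, but their calls did not always match those of foxc1. The summed level of the 4 markers that could be matched (of 8 listed; none was at 0 in any group) ran from 447 to 764 CPM in the control, from 19.2 to 157 CPM in Wnt LOF and from 1.09 to 2.47 CPM in Wnt/Nodal LOF. Most of the control sum was pcdh8.2, with a mean of 548 CPM, and msgn1 and myf5 had means of 1.13 and 2.06 CPM there. Of these markers 4 of 4 were called lower in Wnt/Nodal LOF and 0 of 4 in Wnt LOF, where foxc1 was called. In Nodal LOF their sum ran from 4.91 to 18.5 CPM and 2 of 4 were called lower, while foxc1 was not called without the block. The part of these markers in the foxc1 result was not tested.

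The endodermal and axial members were not called at stage 9+. The control held 49.0, 17.1 and 7.65 CPM of foxa1, a pioneer factor of the endoderm, and Nodal LOF held 8.53, 7.49 and 2.53 CPM. In Wnt/Nodal/BMP LOF foxa1 was at 2.54, 7.39 and 4.69 CPM, below every control library, a log2 fold change of -2.33 that was not called (adjusted p 0.313). DESeq2 gave this comparison an adjusted p of 0.0796. Its relative foxa2, a marker of the organizer and the floor plate, was lower, between 0.359 and 4.83 CPM over all 24 libraries. Both genes were highest in control replicate 1, as foxc1 was. For comparison, the summed level of 6 endoderm markers ran from 973 to 1672 CPM in the control and from 144 to 333 CPM in Nodal LOF, where 5 of 6 were called lower.

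Among the neural plate members, foxd4l1.1, which keeps neural precursors immature, was at 71.7, 56.2 and 46.0 CPM in the control. It was at 6.16, 6.41 and 3.76 CPM in Wnt/Nodal LOF, a log2 fold change of -3.41 (SE 0.78) with an adjusted p of 0.0230. The groups did not overlap. This p was 0.000377 without replicate 1, 0.421 without replicate 2 and 0.149 without replicate 3. Wnt/BMP LOF gave 13.2, 13.6 and 14.6 CPM and Wnt/Nodal/BMP LOF 9.19, 14.7 and 14.7 CPM. Both groups lay below every control library, with adjusted p of 0.303 and 0.214, and the latter was 0.0891 with the replicate block. Nodal LOF kept 40.9 to 46.1 CPM and Nodal/BMP LOF 62.8 to 91.3 CPM.

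In Wnt LOF alone the 3 libraries did not resemble each other. Replicate 1 held 80.1 CPM of foxd4l1.1, above every control library, and replicates 2 and 3 held 5.25 and 2.76 CPM. The same library was highest for foxb1, a TF of the neural plate and later of the posterior hypothalamus, at 1.33 CPM against 0.024 and 0.1 CPM in the other replicates, with 3.26, 1.18 and 0.75 CPM in the control. The summed level of the 8 neural markers was 1598 CPM in this library, 1112 and 1120 CPM in the other Wnt LOF libraries and 1696 to 1796 CPM in the control, while sia1 was at 0. Most of this sum was gmnn, with a mean of 1020 CPM in Wnt LOF. Of the 8 markers 5 were called lower in Wnt LOF (median log2 fold change -2.80) and 5 in Wnt/Nodal LOF (-2.99), among them otx2, which had a mean of 182 CPM in the control and at most 3.88 CPM in any Wnt LOF library. The part of these markers in the changes of the neural plate members was not tested. With all libraries, neither gene was called in Wnt LOF. When Wnt LOF replicate 1 alone was left out, a setting chosen after the data were seen, foxd4l1.1 changed by -3.85 with an adjusted p of 1.16e-05 and foxb1 by -4.73 with 0.0225, and foxc1 was no longer called (-2.97, adjusted p 0.395). In that fit 2 members were called for Wnt LOF and 2 for Wnt/BMP LOF, against 0.607% and 1.83% of all genes. The library left out was the highest of Wnt LOF for both foxd4l1.1 and foxb1. The p-values of these genes for Wnt LOF in that fit are therefore no independent test.

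The replicate block added foxb1 to the calls of Wnt LOF (-2.06, adjusted p 0.0521), of Wnt/BMP LOF (-2.28, 0.0250) and of Wnt/Nodal LOF (-2.84, 0.00898). With the block 3.97%, 7.59% and 6.06% of all genes were called in these comparisons. It also added foxd4l1.2 in Wnt/BMP LOF and Wnt/Nodal LOF with adjusted p of 0.0424 and 0.0469. This gene never exceeded 1.15 CPM at stage 9+. In RefSeq's annotation it lies beside foxd4l1.1 with no gene between them, and reads of such close copies may be split between them, so its values are uncertain.

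Of the ectodermal and ciliary members, foxj1, placed here for its role in cilia, was at 8.38, 9.87 and 5.02 CPM in the control. It fell to 0.344, 1.28 and 0.78 CPM in Wnt/Nodal LOF (log2 fold change -3.27, SE 0.81, adjusted p 0.0410) and to 0.0718, 0.638 and 0.526 CPM in Wnt/Nodal/BMP LOF (-4.22, SE 0.85, adjusted p 0.00769). The latter was -4.23 on introns (adjusted p 0.0223). No library of these groups reached the control. Without replicate 1, 2 or 3 the adjusted p of the first was 0.168, 0.562 and 0.198, and that of the second 0.0536, 0.304 and 0.0747. Single losses gave 6.04, 3.43 and 1.16 CPM in Wnt LOF and 2.34, 5.40 and 1.37 CPM in Nodal LOF, each with 1 library inside the control range, and neither was called. Wnt/BMP LOF held 0.411, 2.42 and 2.79 CPM, with an adjusted p of 0.367, and 0.0746 with the block. Of the 5 multiciliated cell markers that could be matched, 0 of 5 were called in any of the 7 comparisons. Their sum ran from 208 to 255 CPM in the control and from 239 to 324 CPM in Wnt/Nodal LOF. Most of it was rfx2, with a mean of 200 CPM in the control, so the sum says little of the other markers. Whether multiciliated cells were present at this stage was not measured, nor was the place of foxj1 in the embryo. No conclusion on foxj1 is drawn from these markers.

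The relative foxj1.2 was barely detected, at 0.0326, 0.0492 and 0.0577 CPM in the control and 0.162, 0.359 and 0.502 CPM in Wnt LOF. Its log2 fold change of 2.78 had an adjusted p of 0.138, and 0.0448 with the replicate block. Ectodermal foxi2, whose maternal RNA is known in *Xenopus* to activate foxi genes in the animal cap, lay at 145, 179 and 212 CPM in the control and between 136 and 244 CPM elsewhere, and it was not called. The other foxi member, foxi4.1, never exceeded 1.15 CPM at this stage.

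Among the 12 broadly used members tested, none was called in any of the 7 comparisons. The log2 fold changes of these 12 lay between -0.92 and 0.50. The FoxN member foxn3, a repressor linked to cell cycle checkpoints, stood at 86.5% to 88.6% of the control mean in the 4 combined LOFs and passed the threshold only with the block. It was at 80.7, 79.5 and 75.9 CPM in the control and at 74.5, 67.8 and 61.9 CPM in Wnt/Nodal/BMP LOF, where the adjusted p was 0.231, and 0.0139 with the block. The corresponding blocked values for Nodal/BMP, Wnt/BMP and Wnt/Nodal LOF were 0.0994, 0.0327 and 0.0303. In the single losses foxn3 also lay below every control library, but it was called in none of them. It was at 67.5 to 73.9 CPM in Wnt LOF, 73.2 to 75.5 CPM in Nodal LOF and 69.9 to 70.6 CPM in BMP LOF. Another call of the block was foxk2 in Wnt/Nodal/BMP LOF (-0.28, adjusted p 0.0613). The mitotic TF gene foxm1 ran from 86.4 to 114 CPM, and the oocyte-type gene foxr1 from 12.2 to 53.1 CPM with control values of 12.2, 16.0 and 39.7 CPM. Here foxr1 is counted with the broadly used members, although its level dropped during gastrulation.

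Adding 1 signal loss to another gave no called member by edgeR in any of 6 comparisons. Of all genes 0.487% were called where Wnt loss was added to Nodal LOF and 0.594% where it was added to Nodal/BMP LOF. The shares were 0.15% in Wnt/Nodal LOF against Wnt LOF, 0.00625% in Wnt/BMP LOF against Wnt LOF, 0.0812% in Wnt/Nodal/BMP LOF against Wnt/BMP LOF and 0% in Nodal/BMP LOF against Nodal LOF. In this order 3, 3, 2, 2, 1 and 0 of the 23 members had an unadjusted p under 0.05 by edgeR. Of the 16001 genes 551, 573, 259, 271, 164 and 136 did. DESeq2 called 1, 2, 0, 0, 0 and 0 members, with 0.831% and 1.19% of all genes in the first 2. Where Wnt loss was added to Nodal LOF, foxd4l1.1 went from 46.1, 43.4 and 40.9 CPM to 6.16, 6.41 and 3.76 CPM, without overlap. Its log2 fold change was -2.99 (SE 0.77) with an adjusted p of 0.172, and 0.0457 with the block. The block also called foxb1 there (-2.82, 0.0271). Against Nodal/BMP LOF, the block called 4 members lower in Wnt/Nodal/BMP LOF: foxj1 (-2.95, 0.0429), foxb1 (-2.39, 0.0189), foxd4l1.2 (-2.50, 0.0637) and foxd4l1.1 (-2.50, 0.0877). With the block 1.92% and 2.19% of all genes were called in these 2 comparisons. Without Wnt LOF replicate 1 each had 1 called member, against 0.497% and 0.601% of all genes.

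**Figure D2:**
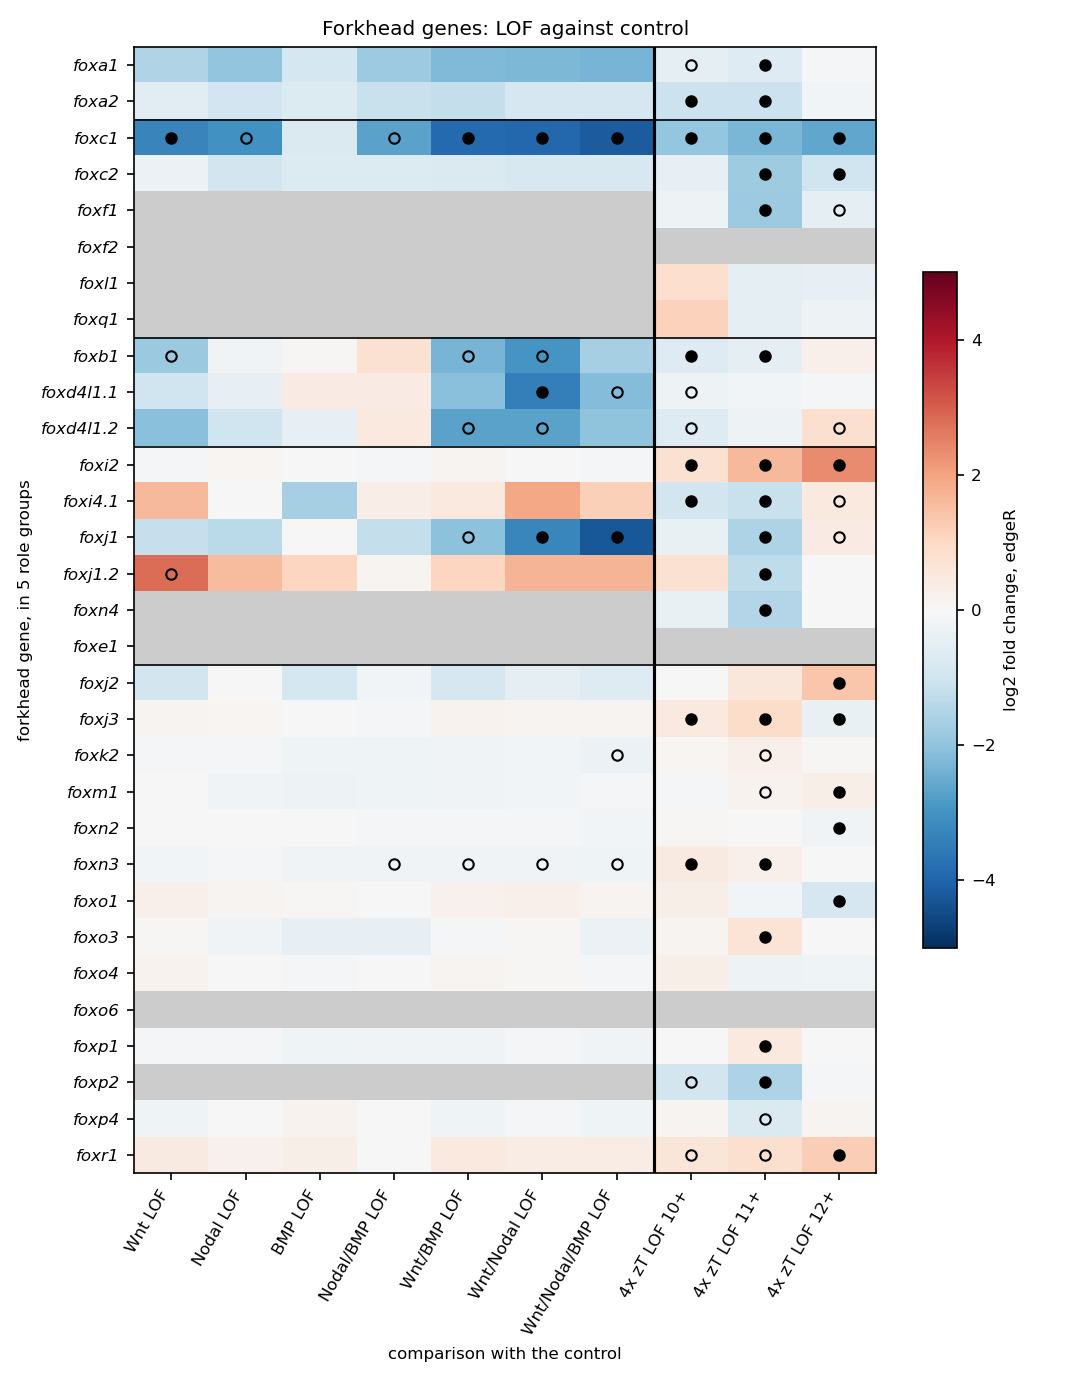
Log2 fold change (color) of the members, ordered in 5 role groups, for the 7 LOFs at stage 9+ and for 4x zT LOF at 3 stages, each against its control. Filled circles were called without the replicate block, open circles only with it, and gray cells were not tested; the 4x zT columns hold 7, 16 and 9 filled circles.

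During gastrulation most members rose in the control embryos. From stage 10+ to 11+, 18 of 29 members rose and 6 fell, where 28.5% of all genes rose and 29.2% fell (57.7% called). From stage 11+ to 12+, 19 rose and 6 fell, where 36.3% and 36% of all genes did (72.2% called). The median log2 change of the members was 1.50 and 0.90 in these steps, and that of all genes 0.00087 and -0.03. Among the 3 largest rises by stage 11+, foxi4.1 went from 0.705 to 18.2 CPM, foxf1 of the lateral mesoderm from 0.233 to 3.54 CPM and foxc2 of the paraxial mesoderm from 8.17 to 96.5 CPM. By stage 12+ the largest rise was that of foxj1.2, from 1.00 to 40.4 CPM, followed by foxq1 from 0.666 to 7.74 CPM and foxf1 to 31.7 CPM. The largest falls were those of foxi2, from 107 to 22.7 and 1.53 CPM, and of foxr1, from 11.5 to 2.81 and 0.363 CPM. The others among the 3 largest falls were foxo3 at stage 11+ (4.88 to 1.55 CPM) and foxj2 at stage 12+ (0.625 to 0.157 CPM). Intron counts give other directions for some broadly used members, such as foxo4, whose log2 change from stage 11+ to 12+ was 1.08 on exons and -1.10 on introns. Of the 19 members tested on introns, 12 and 10 were called in these steps, against 41.9% and 59.5% of all genes.

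In 4x zT LOF, 29 members were tested among 17188 genes, and foxe1, foxf2 and foxo6 were not, with at most 12 reads in any library. Over the 3 stages, 9 members were lower and 6 higher than with control MO, where 20.3% and 21.6% of all genes were called in these directions (41.9% in all). Single stages gave 4 lower and 3 higher at stage 10+ (8% and 9.37% of all genes, 17.4% called), 11 lower and 5 higher at stage 11+ (16.8% and 16.8%, 33.7% called) and 5 lower and 4 higher at stage 12+ (16.4% and 21.4%, 37.8% called). The share of members called was 24.1%, 55.2% and 31% at these stages. The median log2 fold change of the 29 members was 0.03, -0.25 and -0.02, against -0.02, -0.02 and 0.03 over all genes. The 5 comparisons of 4x zT LOF described here use the same 24 libraries. With the replicate block, 13 members were called at stage 10+ and 14 at stage 12+, where 33.3% and 55.5% of all genes were. Over the 3 stages the block called 18 members, 11 lower and 7 higher (54.7% of all genes), adding foxb1, foxi4.1 and foxo3 with adjusted p of 0.0986, 0.0763 and 0.0300. On introns 2, 6 and 7 of 19 members were called at the 3 stages and 9 over all of them, where 11.3%, 21.6%, 30.6% and 38.9% of all genes were.

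The largest fall was that of foxc1. At stage 10+ it was at 29.8, 26.7, 58.5 and 46.2 CPM with control MO and at 10.2, 7.91, 13.5 and 10.6 CPM in 4x zT LOF. At stage 11+ the values were 122, 148, 134 and 130 CPM against 30.8, 32.7, 28.5 and 17.4 CPM. At stage 12+ they were 94.3, 133, 105 and 128 CPM against 12.7, 24.9, 9.83 and 27.8 CPM. The groups overlapped at no stage, and foxc1 was left at 26.1%, 20.5% and 16.3% of its control mean. The log2 fold changes were -1.94 (SE 0.29, adjusted p 8.70e-05), -2.29 (SE 0.29, 5.92e-06) and -2.61 (SE 0.30, 8.46e-07), and all 3 were called without any 1 of the 4 replicates. Its relative foxc2 was not called at stage 10+ (4.76 to 13.1 CPM against 4.13 to 8.14 CPM, which overlap). At stage 11+ foxc2 fell from 70.2, 101, 95.7 and 119 CPM to 32.8, 30.4, 33.0 and 17.5 CPM (log2 fold change -1.76, SE 0.27, adjusted p 5.40e-05). At stage 12+ it was at 182, 259, 208 and 273 CPM against 97.6, 154, 92.5 and 122 CPM (-0.99, SE 0.27, adjusted p 0.00746). In RefSeq's annotation foxc2 has foxl1 as its neighbor, and foxc1 is followed by foxf2 and foxq1. Neither foxl1 nor foxq1 was called at any stage, but both were low. With control MO their means at stages 10+, 11+ and 12+ were 0.0235, 0.120 and 0.602 CPM for foxl1 and 0.0670, 0.666 and 7.74 CPM for foxq1. At the lowest of these levels a fall could hardly have been detected.

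The lateral mesoderm gene foxf1 was lower over the 3 stages (-0.90, adjusted p 0.00851), also without any 1 replicate. At stage 11+ it fell from 3.38, 2.52, 4.90 and 3.36 CPM to 1.24, 0.944, 1.39 and 0.458 CPM (log2 fold change -1.81, SE 0.37, adjusted p 0.000858). By stage 12+ it had reached 27.5 to 33.2 CPM with control MO and 19.4 to 24.9 CPM in 4x zT LOF. These groups did not overlap either, and the adjusted p was 0.319, and 0.0665 with the block. The interaction of stage and condition (adjusted p 0.0782) was lost without replicate 1 (0.187), 2 (0.197) or 4 (0.350). The mesoderm markers were lower here as well: 4 of 4 were called lower over the 3 stages. Their sum at stage 11+ ran from 504 to 653 CPM with control MO and from 321 to 475 CPM in 4x zT LOF. Most of this sum was pcdh8.2, with means of 411 and 347 CPM, so it hides larger falls. The means of msgn1 were 47.4 and 5.29 CPM there, and those of myf5 53.2 and 4.94 CPM. The median log2 fold change of the 4 markers at stage 11+ was -1.90. Their part in the fall of foxc1, foxc2 and foxf1 was not tested.

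Both FoxA genes were lower over the 3 stages (foxa1 -0.39, adjusted p 0.0131, and 0.123 without replicate 4; foxa2 -0.76, 0.00669). The interaction was called for neither (0.270 and 0.264), so their falls were not shown to differ between stages. The levels of foxa2 were 3.84, 5.98, 14.7 and 6.04 CPM against 3.08, 3.40, 5.95 and 2.22 CPM at stage 10+, where the groups overlapped (-1.06, SE 0.35, adjusted p 0.0463). At stage 11+ they were 28.5, 28.6, 45.9 and 36.9 CPM against 18.3, 14.7, 24.1 and 9.05 CPM, without overlap (-1.08, SE 0.34, adjusted p 0.0203). At stage 12+ foxa2 was at 44.1 to 60.8 CPM and 41.3 to 57.3 CPM. The stage 10+ call was lost without replicate 2 (adjusted p 0.162) or replicate 4 (0.187), and the stage 11+ call without replicate 4 (0.167). The fall of foxa1 was called at stage 11+, from 104, 101, 118 and 119 CPM to 79.4, 63.4, 78.6 and 60.6 CPM (-0.65, SE 0.19, adjusted p 0.0149), and lost without replicate 4 (0.174). At stage 10+ it was not called (-0.46, adjusted p 0.132). On introns foxa1 changed by 0.02 at stage 11+, where its exon fall was called. Of the 6 endoderm markers, 3 were called lower at stages 10+ and 11+ each, and 4 higher at stage 12+.

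Of the neural plate members, foxb1 was lower at the first 2 stages. At stage 10+ foxb1 was at 3.90, 3.61, 7.00 and 5.18 CPM with control MO and at 3.11, 2.73, 3.22 and 3.56 CPM in 4x zT LOF (-0.65, SE 0.20, adjusted p 0.0355). At stage 11+ it was at 27.3, 35.4, 40.2 and 41.7 CPM against 26.8, 25.7, 33.2 and 16.5 CPM (-0.50, SE 0.19, adjusted p 0.0546). At stage 12+ foxb1 was not called, and its mean was higher in 4x zT LOF. It was at 69.7 to 93.6 CPM with control MO (mean 82.7) and at 89.1 to 106 CPM in 4x zT LOF (mean 98.3). The first call was lost without replicate 2 (0.101) or 3 (0.268) and the second without replicate 2 (0.145) or 4 (0.471). For foxd4l1.1 the call was made over the 3 stages only (-0.17, SE 0.06, adjusted p 0.0457), and 8 of 12 same-numbered pairs were lower. It was lost without replicate 3 (0.246) or replicate 4 (0.202). The level of foxd4l1.1 was 65.9 to 78.6 CPM at stage 10+ and 124 to 155 CPM at stage 12+ with control MO. The block added foxd4l1.1 and foxd4l1.2 at stage 10+ (-0.26 and -0.74, adjusted p 0.0451 and 0.0150), and foxd4l1.2 at stage 12+ with the opposite sign (0.80, adjusted p 0.00497).

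**Figure D3:**
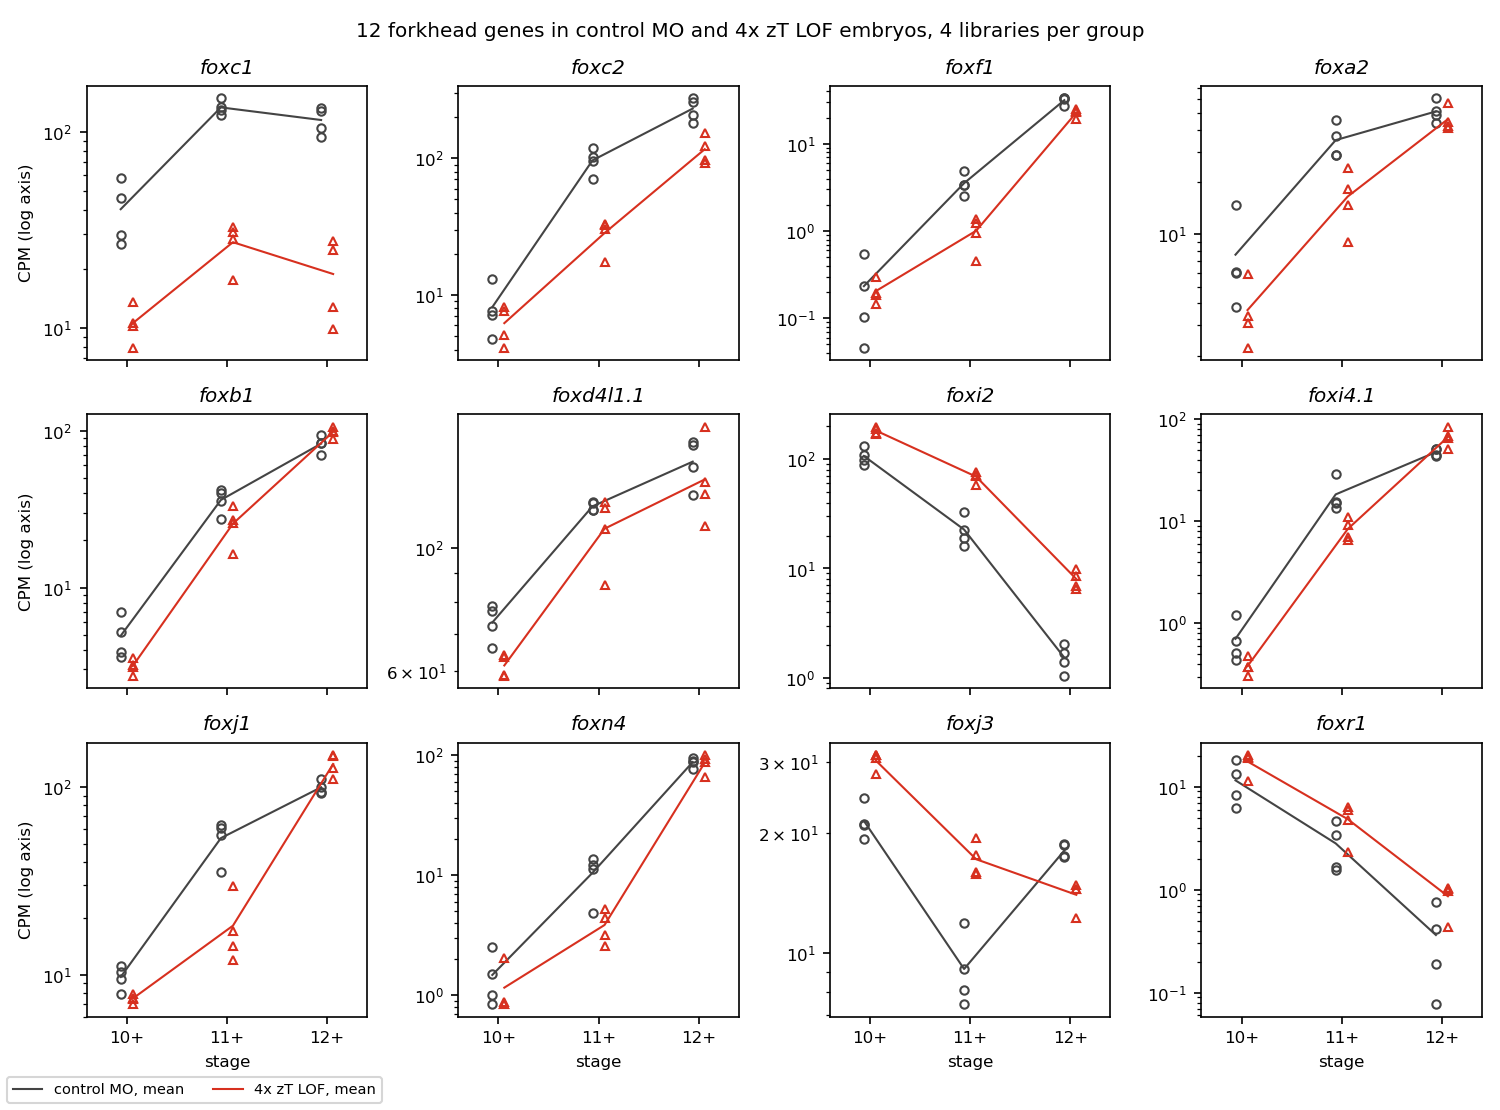
Level (CPM, log axis) of 12 forkhead genes at stages 10+, 11+ and 12+ with control MO (dark circles) and in 4x zT LOF (red triangles). Each point is 1 of 4 libraries and lines join the means; foxc1 stays lower and foxi2 higher at every stage, while foxj1, foxn4 and foxi4.1 are lower at stage 11+ and near or above the control at stage 12+.

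The ectodermal and ciliary members showed 2 patterns. The first was that of foxi2, which was higher at every stage, as its level dropped. At stage 10+ it was at 131, 109, 89.1 and 98.2 CPM with control MO and at 198, 174, 189 and 171 CPM in 4x zT LOF. At stage 11+ it was at 32.9, 22.6, 19.1 and 16.1 CPM against 77.0, 57.7, 70.8 and 71.6 CPM. At stage 12+ it was at 2.01, 1.67, 1.39 and 1.04 CPM against 6.54, 6.92, 9.94 and 8.59 CPM. The groups were apart at each stage, with log2 fold changes of 0.77 (SE 0.18, adjusted p 0.00613), 1.61 (SE 0.19, 1.95e-06) and 2.37 (SE 0.22, 6.07e-08). These calls held without any 1 of the 4 replicates, and the stage by condition interaction gave an adjusted p of 0.00116.

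The second pattern was a fall at stage 11+ that was not seen at stage 12+. With control MO, foxj1 rose from 11.2, 10.3, 9.51 and 7.95 CPM at stage 10+ to 35.3, 60.7, 55.2 and 62.5 CPM at stage 11+. In 4x zT LOF it was at 14.2, 29.8, 17.1 and 12.0 CPM at stage 11+ (-1.55, SE 0.21, adjusted p 1.16e-05). At stage 12+ the order was reversed, with 111, 100, 93.2 and 94.6 CPM against 145, 148, 127 and 110 CPM (0.41, adjusted p 0.138, and 0.0667 with the block). The change between stages passed the interaction test with an adjusted p of 0.000197. On introns foxj1 changed by -0.77 at stage 11+ and by 1.05 at stage 12+, both called (adjusted p 0.0130 and 0.000491).

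The multiciliated cell TF foxn4 was also lower at stage 11+ on exons: 4.82, 11.4, 13.5 and 12.2 CPM against 2.56, 4.39, 5.25 and 3.18 CPM at stage 11+ (-1.45, SE 0.33, adjusted p 0.00229), and 77.5 to 94.7 CPM against 66.0 to 100 CPM at stage 12+. Its intron counts went the other way over the 3 stages (0.68, adjusted p 0.0351, against -0.60 on exons). For foxi4.1, which lies beside foxi4.2 and may share reads with it, the stage 11+ values were 13.5, 14.9, 29.1 and 15.5 CPM against 6.93, 9.13, 10.9 and 6.50 CPM (-1.13, SE 0.25, adjusted p 0.00182). It was also lower at stage 10+ (0.437 to 1.2 CPM against 0.305 to 0.474 CPM, -0.92, adjusted p 0.0652). The stage 10+ call was lost without replicate 1 (0.139), 2 (0.114) or 4 (0.222). At stage 12+ foxi4.1 was at 43.6 to 50.6 CPM and 50.3 to 83.5 CPM, with an adjusted p of 0.140, and 0.00912 with the block. The low foxj1.2 was at 0.773, 0.863, 1.43 and 0.944 CPM against 0.213, 0.765, 0.539 and 0.153 CPM at stage 11+ (-1.29, SE 0.42, adjusted p 0.0249). That call was lost without replicate 3 (0.131) or 4 (0.175).

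Cell type markers moved in the same period. Of the 5 multiciliated cell markers, 2 were called lower and 1 higher at stage 11+, and 1 lower and 3 higher at stage 12+. Their sum was 364 to 408 CPM with control MO and 328 to 375 CPM in 4x zT LOF at stage 11+. At stage 12+ it was 562 to 615 CPM against 665 to 814 CPM. Most of this sum was rfx2, with means of 331 against 305 CPM at stage 11+ and 426 against 536 CPM at stage 12+. The sum therefore says little of the other markers. Of the 8 epidermis markers, 3 were lower at stage 11+ and 6 higher at stage 12+, where their sum was 4338 to 4788 CPM with control MO and 5777 to 6277 CPM in 4x zT LOF. No marker of either list was at 0 in any group. Their part in the changes of the foxi, foxj1 and foxn4 genes was not tested.

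Of the 13 broadly used members tested, which include the oocyte-type gene foxr1, 0, 1 and 3 were lower at stages 10+, 11+ and 12+. In the same order 2, 4 and 3 were higher. Among all genes 8%, 16.8% and 16.4% were called lower and 9.37%, 16.8% and 21.4% higher. The member lower at stage 11+ was foxp2, which was low, with a mean of 2.63 CPM with control MO. Another low member of this group, foxj2, had a mean of 0.157 CPM with control MO at stage 12+. The gene foxj3 was at 24.5, 21.1, 19.2 and 20.9 CPM against 30.8, 28.0, 31.3 and 31.2 CPM at stage 10+ (0.50, SE 0.12, adjusted p 0.00620). At stage 11+ it was at 11.9, 9.12, 7.45 and 8.08 CPM against 17.6, 15.8, 15.9 and 19.4 CPM (0.91, SE 0.12, adjusted p 8.71e-06). At stage 12+ it was at 17.4, 17.5, 18.7 and 18.6 CPM against 14.5, 14.8, 14.4 and 12.3 CPM (-0.37, SE 0.12, adjusted p 0.0237, and 0.168 without replicate 4). The groups were apart at each stage, and the interaction gave an adjusted p of 4.92e-05. On introns foxj3 was lower at all 3 stages, with -0.35, -0.57 and -0.40 (adjusted p 0.106, 0.00309 and 0.0248), so exons and introns had opposite signs at stages 10+ and 11+.

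Similarly, foxn3 was higher on exons at stage 10+ (81.9, 64.5, 66.2 and 71.6 CPM against 108, 85.7, 92.9 and 105 CPM) with a log2 fold change of 0.46 (SE 0.08, adjusted p 0.000251). At stage 11+ the difference was 0.24 (SE 0.08, adjusted p 0.0259), from 85.7 to 89.8 CPM and from 98.0 to 109 CPM, and at stage 12+ the groups overlapped between 135 and 151 CPM. Its intron changes at the first 2 stages were -0.01 and -0.15, and neither was called. The FoxP repressors differed in direction at stage 11+: foxp1 was at 17.1, 12.7, 11.5 and 11.9 CPM against 19.3, 17.5, 16.5 and 20.6 CPM (0.47, SE 0.15, adjusted p 0.0201), and foxp2 at 1.44, 3.95, 1.43 and 3.72 CPM against 0.853, 1.3, 0.628 and 0.828 CPM (-1.54, SE 0.44, adjusted p 0.0115). Both calls were lost without replicate 4 (0.163 and 0.135). Over the 3 stages foxp2 was lower (-0.85, adjusted p 0.0198), a call kept without any 1 replicate. The block added foxk2, foxm1, foxp4 and foxr1 to the calls of stage 11+ (50.1% of all genes were called), with adjusted p of 0.0887, 0.0238, 0.0178 and 0.00415. At that stage the mean of foxp4 was lower in 4x zT LOF (35.6 against 58.5 CPM), and those of foxk2, foxm1 and foxr1 were higher. To the calls of stage 10+ it added foxa1, foxp2 and foxr1, with 0.0521, 0.0807 and 0.0113.

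Of the FoxO genes, which answer to insulin signaling in animals, foxo1 was called at stage 12+, foxo3 at stage 11+ and foxo4 at no stage. At stage 12+ foxo1 was at 8.91, 9.48, 15.2 and 8.55 CPM against 6.46, 5.41, 7.38 and 3.99 CPM (-0.86, SE 0.21, adjusted p 0.00393), also called without any 1 replicate, with 0.11 on introns. At stage 11+ foxo3 was at 1.60, 1.97, 1.62 and 1.02 CPM against 2.52, 3.60, 1.73 and 2.09 CPM (0.68, SE 0.26, adjusted p 0.0552), a call lost without replicate 1 (0.136), 2 (0.177) or 4 (0.178). The mitotic TF gene foxm1 was at 76.1, 69.6, 84.2 and 82.1 CPM against 106, 83.9, 106 and 87.7 CPM at stage 12+ (0.30, SE 0.09, adjusted p 0.0168), lost without replicate 1 (0.129). Of 8 mitotic genes, 1 was called higher and 2 lower at that stage.

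Lower still, foxj2 was at 0.17, 0.209, 0.0949 and 0.153 CPM against 0.371, 0.461, 0.262 and 0.558 CPM at stage 12+ (1.40, SE 0.41, adjusted p 0.0122, and 0.114 without replicate 4). The gene foxn2 was at 58.3 to 62.4 CPM against 48.2 to 59.4 CPM (-0.18, SE 0.08, adjusted p 0.0919), lost without replicates 1 (0.290), 3 (0.274) or 4 (0.149). The gene foxr1 was at 0.766, 0.418, 0.19 and 0.0767 CPM against 1.03, 1.01, 0.437 and 0.976 CPM (1.21, SE 0.54, adjusted p 0.0939), lost without replicate 2 (0.274) or 4 (0.370). Over the 3 stages foxr1 was higher in 12 of 12 same-numbered pairs (0.83, SE 0.26, adjusted p 0.0165, and 0.178 without replicate 4). Like foxi2, foxr1 was higher in 4x zT LOF while its level dropped from stage to stage.

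Over all stages, the interaction of stage and condition was called for 11 members, where 27.1% of all genes were called: foxb1, foxc2, foxf1, foxi2, foxi4.1, foxj1, foxj1.2, foxj3, foxn3, foxn4 and foxo1. For foxc1 it was not called, so its fall was not shown to differ between the stages. The 11 members include all 5 ectodermal and ciliary genes tested. Of these, foxj1.2 was lost without replicate 3 (0.325) or 4 (0.276) and foxn4 without replicate 2 (0.243) or 4 (0.312). Among the other members, foxb1 and foxo1 were lost without replicate 2 or 4, and foxc2 and foxn3 without replicate 4. The losses of foxf1 are given above. Only foxi2, foxi4.1, foxj1 and foxj3 kept the interaction call without any 1 of the 4 replicates. With the block 22 members were called for the interaction, against 48.6% of all genes, and on introns 4 of 19, against 7.44%. The forkhead genes left out by the rule also moved: in Wnt/Nodal LOF 2 of 6 were lower and 2 higher, with foxa4 at -6.38 and foxd3 at -4.11, and over the 3 stages of 4x zT LOF 2 were lower and 2 higher. Their levels were not compared with those of the members by a test.

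New RNA was measured as the ratio of 4sU-enriched to input read pairs after scaling, for genes with at least 10 input pairs. The libraries held 7884062 input pairs and 888940 enriched pairs on genes at stage 8+, and 6470826 and 1538052 at stage 10+. There was 1 library of each kind, so no test was made, and intervals (95%, exact binomial) cover counting error only. At stage 8+ 13 members could be measured, with a median ratio of 0.871 against 0.764 over all genes, and 3 members reached a ratio of 2 where 17.4% of all genes did. At stage 10+ 17 could be measured, with a median of 1.66 against 0.684, and 8 reached 2 where 23.3% of all genes did. When the libraries were scaled by their totals instead, the median at stage 10+ was 1.07 against 0.442. With this scaling 2 members reached a ratio of 2 at stage 8+ and 6 at stage 10+. Those that no longer did were foxn2 at stage 8+ (1.73) and foxk2 (1.54) and foxc1 (1.46) at stage 10+. The shares of all genes that reached 2 with this scaling are not given here.

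**Figure D4:**
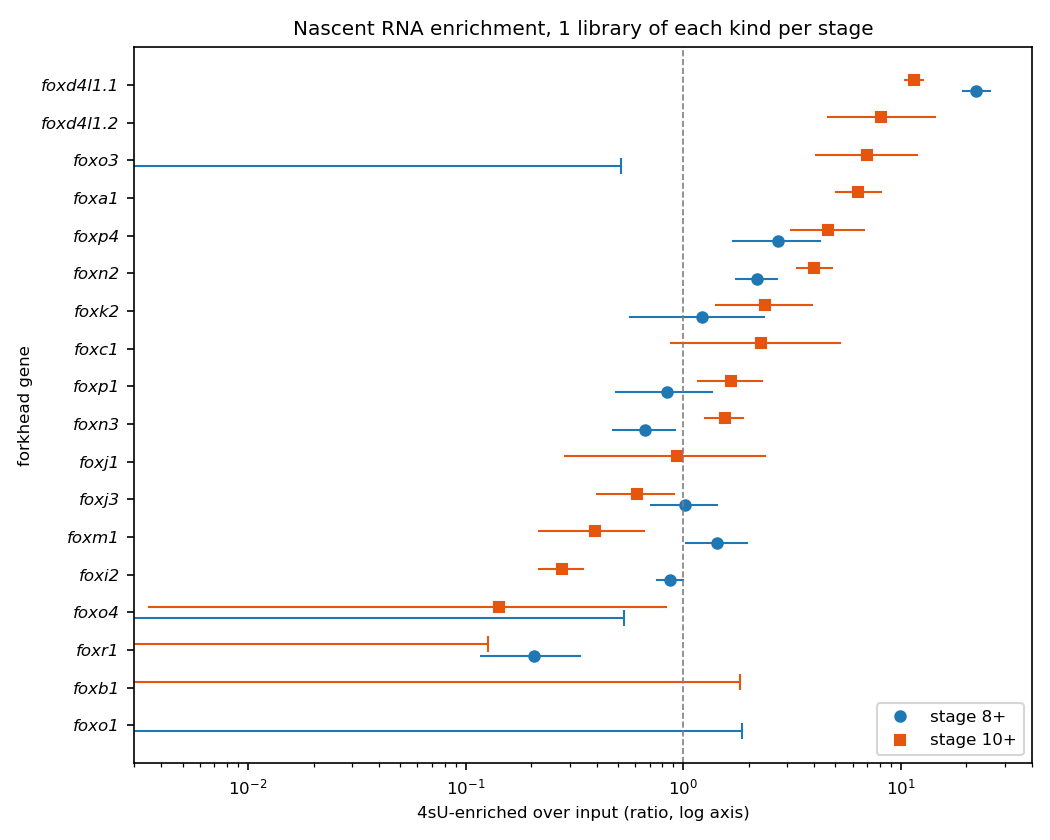
Ratio of 4sU-enriched to input RNA (log axis) of the 18 members with at least 10 input pairs at stage 8+ (blue circles) or 10+ (orange squares). Lines are 95% intervals for counting error, and a line that ends in a tick with no symbol marks 0 enriched pairs and its upper limit; foxd4l1.1 has the highest ratio at both stages.

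Among the members with at least 10 input pairs, the highest ratio was that of foxd4l1.1. It was 22.2 (19.3 to 25.6) at stage 8+ from 586 enriched and 294 input pairs, and 11.5 (10.4 to 12.6) at stage 10+ from 1170 and 665 pairs. At these stages 99.1% and 97.1% of all measured genes had a lower ratio. Other members with ratios above 2 at stage 10+ were foxd4l1.2 at 8.07 (4.61 to 14.3), foxo3 at 6.95 (4.09 to 11.8), foxa1 at 6.38 (5.02 to 8.10), foxp4 at 4.62 (3.14 to 6.77), foxn2 at 4.00 (3.32 to 4.80), foxk2 at 2.38 (1.41 to 3.89) and foxc1 at 2.26 (0.876 to 5.24). At stage 8+ foxp4 was at 2.73 (1.69 to 4.26) and foxn2 at 2.17 (1.74 to 2.68). No enriched pair of foxo3 was found at stage 8+ beside 81 input pairs, which allows a ratio of up to 0.519.

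At the other end, foxi2 went from 0.871 (0.756 to 1.00) at stage 8+ to 0.276 (0.217 to 0.347) at stage 10+, from 2800 and 1815 input pairs. For foxr1 the ratio was 0.206 (0.117 to 0.336) at stage 8+, and at stage 10+ no enriched pair was found beside 191 input pairs, which allows a ratio of up to 0.127. The scaled input level of foxr1 at stage 10+ was 0.303 (0.258 to 0.355) times that at stage 8+. The same quotient was 33.0 (14.8 to 91.4) for foxa1 and 3.11 (2.71 to 3.58) for foxd4l1.1. It was 5.27 (2.09 to 15.8) for foxc1, from 6 and 23 pairs, and 16.0 (5.05 to 81.5) for foxj1, from 3 and 35 pairs. Several later genes had fewer than 10 input pairs and got no ratio, among them foxn4 with 14 enriched and 0 input pairs at stage 8+ and 41 and 5 at stage 10+. The same held for foxc1 at stage 8+ (27 enriched and 6 input pairs) and for foxa2 (30 and 8) and foxc2 (19 and 9) at stage 10+. Others had no enriched pair, such as foxa1 at stage 8+ (0 and 6). Genes without a ratio were not ranked against foxd4l1.1.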

How the data were processed

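For the poly(A) libraries the authors mapped paired reads to the *X. tropicalis* genome with STAR (2.5.3a), using a revised set of gene models as a guide. They counted reads on exons and introns with VERSE in its featureCounts mode, without regard to strand. For 4sU they used Bowtie2 (2.1.0) and kept pairs that aligned to a single gene. The deposited values are raw counts, with no normalization by the authors. The lines of the 4sU table that name no gene were left out. Unmapped pairs made up 39.5% and 50.4% of its input libraries and 95.5% and 91.3% of the enriched ones, and 10 further such lines 0.163% to 0.717%. Symbols came from the 4sU table, where 12787 of 19289 gene lines carry one, and 8859 genes of the exon files have no line there. All 32 members were found by symbol in RefSeq's annotation, used for gene order only. Reads of overlapping or antisense genes cannot be separated without strand, and close copies such as foxd4l1.1 and foxd4l1.2, foxi4.1 and foxi4.2, or foxj1 and foxj1.2 may share reads.

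Exon counts were tested in R (4.3.3) with edgeR (4.0.16), after filterByExpr and TMM, with 1 fit per experiment over all its groups, as condition alone or as stage and condition, and with p-values adjusted over all genes and called at 0.1. The SE is the log2 fold change divided by the square root of F. DESeq2 (1.42.0), its size factors, no filter, intron counts (24 members have an intron line, 12 and 19 of which were tested), a replicate block and leaving out each replicate were the alternatives. The fits that left out a replicate had no replicate block. The tests were first tried on simulated data. Deviations from the group means correlated between libraries of the same replicate number (r of 0.525 to 0.827 in 21 LOF and control pairs at stage 9+, and 0.543 to 0.831 in 12 pairs of the T-box experiment). Between different numbers r was -0.582 to -0.189 in 42 pairs and -0.432 to 0.111 in 36 pairs. The numbers therefore pair the libraries. They come from the labels, which do not say what is shared or whether libraries are separate clutches, so p-values measure only the spread between these samples. No library was a copy of another. The 4sU ratios used DESeq2 size factors over gene lines, and figures were drawn with matplotlib (3.10.9). Members and lists were chosen with earlier results of these data known. Described per library are members called in any of the 7 LOFs or in the T-box comparisons with control, members called between control stages appear as counts with the 3 largest rises and falls, and the others as ranges. The values of 1 member are not reported here.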

Additional observations from a re-analysis of the deposited data

Results flagged for a closer look

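In the T-box experiment, 12 of 132 sets of 4 libraries (22 members in 6 groups) had 1 library farther from the other 3 than Dixon's 95% critical value allows, which chance gives in about 1 of 20 sets. In 4x zT LOF, foxc2 at stage 11+ was at 17.5 CPM in replicate 4 and at 30.4 to 33.0 CPM in the others. For foxj3, replicate 2 at stage 10+ was at 28.0 CPM (others 30.8 to 31.3 CPM) and replicate 4 at stage 12+ at 12.3 CPM (14.4 to 14.8 CPM). In replicate 3 at stage 10+, foxn4 was at 2.06 CPM (0.837 to 0.883 CPM) and foxr1 at 11.4 CPM (19.2 to 20.2 CPM). At stage 12+ the same replicate held 151 CPM of foxn3 (137 to 139 CPM) and 0.437 CPM of foxr1 (0.976 to 1.03 CPM), and replicate 1 held 8.82 CPM of foxp1 (10.7 to 11.1 CPM). With control MO, replicate 3 was apart for foxi4.1 at stage 11+ with 29.1 CPM (13.5 to 15.5 CPM), and at stage 12+ for foxn3 with 151 CPM (135 to 137 CPM) and foxo1 with 15.2 CPM (8.55 to 9.48 CPM). Replicate 1 at stage 12+ held 27.5 CPM of foxf1 (33.1 to 33.2 CPM). At stage 12+ foxn3 was thus highest in replicate 3 of both conditions.

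The difference between 4x zT LOF and control MO changed with stage in 11 members by edgeR's interaction test. The adjusted p was 4.92e-05 for foxj3, 0.000197 for foxj1, 0.00116 for foxi2, 0.00391 for foxi4.1, 0.0149 for foxn3, 0.0246 for foxo1, 0.0368 for foxc2, 0.0382 for foxb1, 0.0623 for foxn4, 0.0663 for foxj1.2 and 0.0782 for foxf1. Of the 29 members tested, 7 were called without replicate 2 and 4 without replicate 4. The shares of all genes called in these fits are not given here.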

How the results depend on the processing

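The counts that follow are of members called. With the replicate block they were 3 in Wnt, 1 in Nodal, 2 in Nodal/BMP, 5 in Wnt/BMP, 6 in Wnt/Nodal and 5 in Wnt/Nodal/BMP LOF. They came to 2 for Wnt/Nodal against Nodal LOF, 4 in Wnt/Nodal/BMP against Nodal/BMP LOF, 13 and 14 in 4x zT LOF at stages 10+ and 12+, and 22 for the interaction. The 114 fold changes called without the block kept their call with it. They also kept their sign, which was not compared for the interaction terms among them. At single stages the block changed no call of an LOF against its control other than those given above, among the members reported here. DESeq2 gave 1 in Nodal, 1 in Nodal/BMP and 5 in Wnt/Nodal/BMP LOF, 1 for Wnt/Nodal against Nodal LOF and 2 in Wnt/Nodal/BMP against Nodal/BMP LOF. An adjusted p of at most 0.05 left 0 in Wnt LOF. Leaving out each replicate gave 0 to 3 in Wnt, 0 to 1 in Wnt/BMP, 0 to 1 in Wnt/Nodal and 0 to 3 in Wnt/Nodal/BMP LOF, and 0 to 1 for the comparisons with Nodal and Nodal/BMP LOF. In the T-box experiment it gave 9 to 15 at stage 11+, 5 to 10 at stage 12+, 8 to 14 over the 3 stages and 4 to 12 for the interaction, each lowest without replicate 4. The shares of all genes called in the fits that left out a replicate are not given here. These counts therefore do not tell whether members were lost more often than other genes. Without Wnt LOF replicate 1 alone, chosen after seeing the data, the counts were 2 in Wnt, 2 in Wnt/BMP, 1 in Wnt/Nodal against Nodal and 1 in Wnt/Nodal/BMP against Nodal/BMP LOF. DESeq2 size factors ended 2 of 114 calls and no filter 4, with no change of sign outside the interaction terms, whose sign was not compared.

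Intron counts, which are lower (1111752 to 4708294 per library), gave 0 in Wnt, Wnt/BMP and Wnt/Nodal LOF, 1 in Wnt/Nodal/BMP LOF, 2 and 6 in 4x zT LOF at stages 10+ and 11+, 9 over the 3 stages, 4 for the interaction, and 12 and 10 between control stages. Of 73 called fold changes with intron counts, which include interaction terms whose sign was not compared, 21 had the opposite sign. For 4x zT LOF these were foxj3 (-0.35, -0.57 and -0.44 at stage 10+, stage 11+ and over the stages), foxn3 (-0.014, -0.15 and -0.18), foxa1 (0.019 at stage 11+ and 0.050 over the stages), foxo1 (0.11 at stage 12+), foxj1 (0.13 over the stages) and foxn4 (0.68 over the stages). From stage 10+ to 11+ in control embryos they were foxj3 (0.21), foxm1 (0.28) and foxo4 (-0.33), and from 11+ to 12+ foxj1 (-0.38), foxj3 (-0.49), foxo1 (-0.035), foxn2 (-0.15), foxo4 (-1.10), foxn3 (-0.17) and foxa1 (-0.013). The cause was not tested. Scaling the 4sU libraries by totals moved the median ratio at stage 10+ from 1.66 to 1.07. At stage 9+ there were 3 libraries per group, and the control levels of foxc1 (9.87 to 66.6 CPM) and foxa1 (7.65 to 49.0 CPM) spread far beyond the 0.0360 CPM that 1 read was worth.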
